A study of Arabidopsis thaliana with 57 samples.

Results

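The enzymes that make, decorate, cut and trim xyloglucan were followed at the transcript level in late stomatal lineage cells of Arabidopsis thaliana. The 10 genes were chosen by name, with no measured value in the rule, but with earlier results of these data known. They were CSLC4 (AT3G28180), XXT1 (AT3G62720), XXT2 (AT4G02500), XXT5 (AT1G74380), MUR3 (AT2G20370), FUT1 (AT2G03220), XTH4 (AT2G06850), XTH9 (AT4G03210), XTH22, also called TCH4 (AT5G57560), and XYL1 (AT1G68560). All 10 were among the 27655 genes of the count table, and all 10 passed the filter on low counts in every comparison. The study itself had selected XYL1 as a candidate target from these libraries, so its course over time is not independent evidence of its direction. That selection also used published data on binding by SPCH or FAMA and on expression in single cells. In the study, misexpressed XYL1 gave smaller stomata at a higher density, which was not examined here.

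Xyloglucan is the main hemicellulose of the primary wall in most flowering plants and coats and tethers cellulose. Its glucan backbone is made in the Golgi by CSLC glucan synthases, and XXT xylosyltransferases add xylose side chains, some of which MUR3 extends with galactose and FUT1 with fucose. In the wall, xyloglucan endotransglucosylase/hydrolases (XTHs) cut chains and rejoin the ends, and the alpha-xylosidase XYL1 removes xylose from the free end of the chain. Guard cells have thick, anisotropic walls that bend with each opening of the pore, and these walls are laid down as the guard mother cell divides and the daughter cells mature.

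All 5 lines carried the FAMA promoter driving LhG4-GR, a transcription factor that is active only with dexamethasone (DEX), and an OPp promoter driving a Venus-tagged protein. The protein was a nuclear localization signal (NLS, the control line), FAMA, SPCH, or either factor fused to the SRDX repression domain (SRDX-FAMA and SRDX-SPCH). FAMA and SPCH are bHLH transcription factors of the stomatal lineage: SPCH starts it, and FAMA drives guard cell differentiation and stops further division. Seedlings were treated with 30 µM DEX at 10 days after germination for 2, 3 or 4 h, then protoplasted, and Venus-positive cells were sorted and sequenced as 57 libraries. NLS and FAMA had 11 libraries each, SPCH and SRDX-FAMA 12 each and SRDX-SPCH 11, with 3 or 4 biological replicates per line and time point. The name of 1 of the 4 FAMA 4 h libraries gives that line and time but matches no labelled sample. FAMA 4 h replicate 4 was the only sample left over, and this match by elimination was not used. No member's call in the line comparisons changed without that library. The promoter is active in guard mother cells, guard cells and some myrosin cells, all induced lines also carry the native genes, and every library passed through protoplasting. In these bulk samples fewer cells of a type and less RNA per cell cannot be told apart.

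Total counts ranged from 7296381 to 60348384 per library, with a median of 33317326. Log2 expression of replicate pairs correlated at 0.948 to 0.985. In the libraries of the FAMA and SRDX-FAMA lines the FAMA transcript lay at 3484 to 7236 and 344 to 6100 normalized CPM (counts per 1000000, scaled over all libraries), against 142 to 361 CPM in NLS, and the SPCH transcript lay at 7997 to 15705 CPM in SPCH and 4883 to 9570 CPM in SRDX-SPCH. The lowest FAMA value of the SRDX-FAMA line belonged to the library labelled SRDX-FAMA 4 h replicate 2, which held 9640 CPM of SPCH and so goes against its label. Calls on that line are given with and without it. FAMA 3 h replicate 3 held 276 CPM of SPCH, within a line whose median was 11.8 CPM. No marker gene of mature guard cells, meristemoids and guard mother cells, myrosin cells, mesophyll, epidermis, dividing cells or phloem was at 0 in any library.

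Per kilobase of exon, XTH22 had the highest level of the 10 genes, with 201 ± 68.1 CPM per kb (SD, n = 57 libraries). MUR3 followed with 47.7 ± 9.61, then XXT2 with 37.4 ± 6.80, XXT1 with 36.4 ± 8.02, XXT5 with 26.6 ± 4.42, CSLC4 with 22.5 ± 3.91, XTH9 with 17.6 ± 10.8, XYL1 with 10.9 ± 4.05, XTH4 with 7.77 ± 5.68 and FUT1 with 4.89 ± 1.31 CPM per kb. XTH22 stood above every other gene in this order, since its lowest library, at 110 CPM per kb, exceeded the highest library of MUR3 at 76.0, whereas the ranges of all neighbours from MUR3 down overlapped between libraries. The genes of the Golgi differed little between libraries. The coefficient of variation over all libraries was 16.6% to 26.8% for the 6 synthesis genes, against 33.8% for XTH22, 37.1% for XYL1, 61.4% for XTH9 and 73.2% for XTH4. XTH4 spanned a 21.9-fold range of normalized CPM and XTH9 a 13.1-fold range. The counts behind these values were lowest for XTH4 and FUT1, at 47 to 1605 and 75 to 618 reads per library.

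**Figure D1:**
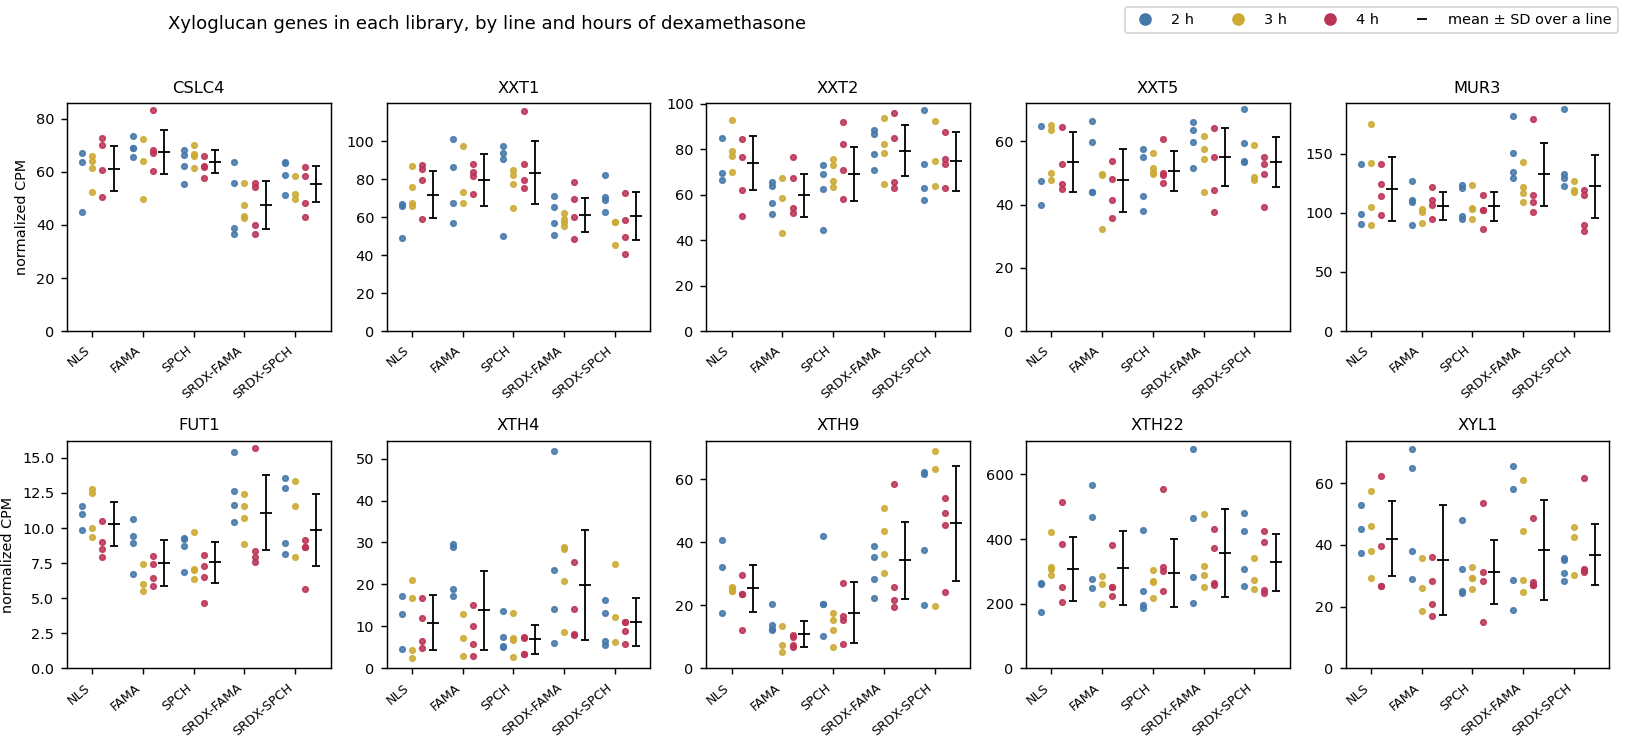
Normalized CPM (y axis, linear, from 0) of each of the 10 xyloglucan genes in every library, grouped by line (x axis) and coloured by hours of DEX, with the mean ± SD over a line beside each group. XTH9 lay at 5.29 to 20.3 CPM in FAMA and at 19.3 to 58.6 CPM in SRDX-FAMA, while the groups of most other genes overlapped widely.

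The lines were compared by pooling the 3 time points with time as a covariate, with edgeR's quasi-likelihood test, and a gene was called at a Benjamini-Hochberg adjusted p under 0.05 over all genes tested. FAMA against SRDX-FAMA and SPCH against SRDX-SPCH ask how cells with the native factor differ from cells with its repressor fusion. In FAMA against SRDX-FAMA 6 of the 10 genes were called, 2 higher (CSLC4 and XXT1) and 4 lower (XTH9, FUT1, XXT2 and MUR3), where 13.1% of all genes tested were called, 4.33% higher and 8.82% lower. In SPCH against SRDX-SPCH 3 were called, CSLC4 and XXT1 higher and XTH9 lower, against 11.6% of all genes, 6.19% higher and 5.38% lower. The median log2 fold change of the 10 genes was -0.30 in FAMA against SRDX-FAMA and -0.17 in SPCH against SRDX-SPCH, where the medians of all genes tested were 0.01 and -0.01. Without the library labelled SRDX-FAMA 4 h replicate 2 the same 6 genes were called.

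Against NLS fewer of the genes passed. The study proposed that weakly fluorescent cells were over-represented in its NLS samples, which could shift their cell composition from that of SPCH and FAMA. For its target list it turned instead to time points within a line and to SPCH against FAMA. The part of cell composition in the differences from NLS was not tested here. FUT1 and XTH9 were lower in FAMA (7.42% of all genes called, 5.47% lower) and FUT1 was lower in SPCH (6.84% called, 4.13% lower). XTH9 was higher in SRDX-SPCH, where 2.67% of all genes were called and 1.7% were higher. No member was called in SRDX-FAMA against NLS (2.25% of all genes called) by edgeR, with 4 at an unadjusted p under 0.05 where 13.2% of all genes were, and DESeq2's Wald test called CSLC4. SPCH and FAMA were also compared with each other, which asks where the native factors differ. No member was called there by edgeR (1.57% of all genes called), with 3 at an unadjusted p under 0.05 where 10.3% of all genes were, and DESeq2's Wald test called XTH9. The 4 comparisons with NLS share its 11 libraries.

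**Figure D2:**
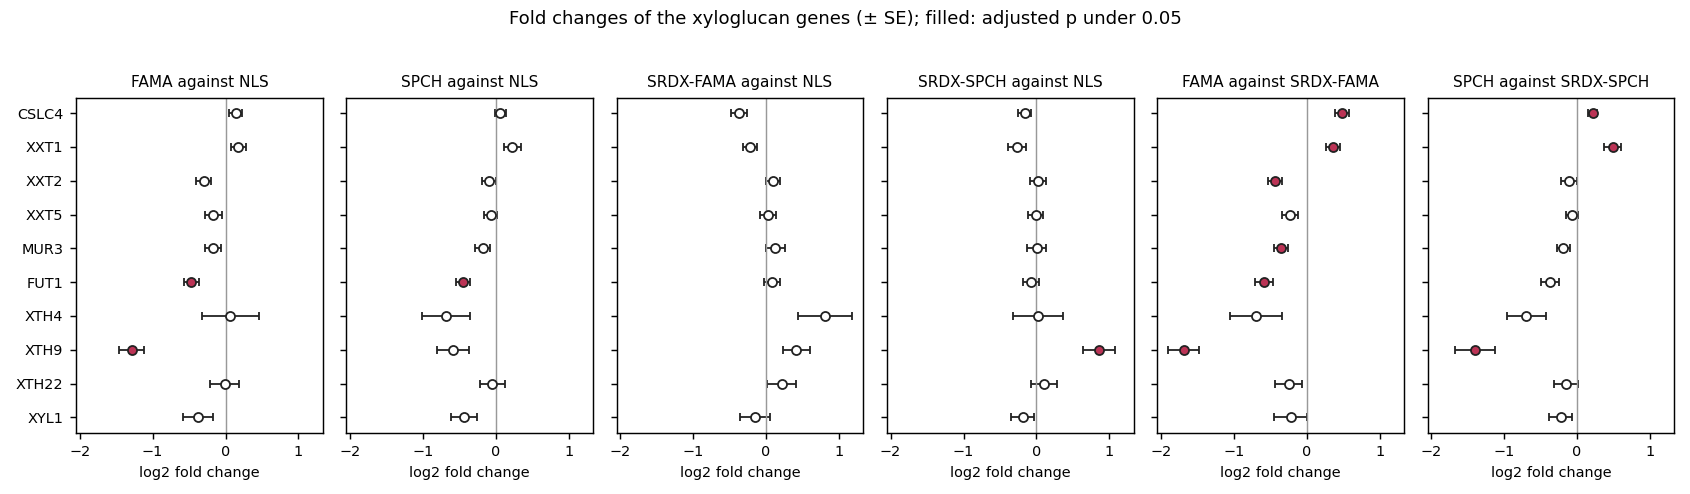
Log2 fold change (x axis) with its SE for the 10 genes (y axis) in the 4 comparisons with NLS and the 2 comparisons of a native factor with its repressor fusion, with filled points for an adjusted p under 0.05. XTH9 reached -1.69 in FAMA against SRDX-FAMA and -1.40 in SPCH against SRDX-SPCH, and CSLC4 and XXT1 were above 0 in both.

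The backbone gene CSLC4 encodes the main xyloglucan glucan synthase of Arabidopsis. It spans positions 10505711 to 10509265 on the plus strand of chromosome 3 (TAIR10.1, RefSeq annotation, like all positions given here). Its lowest, median and highest values were 49.6, 68.2 and 83.4 CPM in FAMA, and 36.5, 45.5 and 63.7 CPM in SRDX-FAMA. Of the 11 FAMA libraries, 9 lay above every SRDX-FAMA library and all 11 above the SRDX-FAMA median. CSLC4 was 1.40-fold higher in FAMA than in SRDX-FAMA (log2 fold change 0.48 ± 0.10 SE, edgeR adjusted p = 0.00131), and 0.51 ± 0.10 without the library labelled SRDX-FAMA 4 h replicate 2 (edgeR adjusted p = 0.00108). In SPCH it lay at 55.3, 64.0 and 70.2 CPM, and in SRDX-SPCH at 43.2, 58.2 and 63.5 CPM. Here the difference was 1.16-fold (0.22 ± 0.06, edgeR adjusted p = 0.0303), 6 of the 12 SPCH libraries lay above every SRDX-SPCH library, and the call was lost on leaving out any 1 of 8 of the 23 libraries. NLS had 45.0, 63.5 and 72.6 CPM, so that both repressor lines had medians below those of NLS, FAMA and SPCH. CSLC4 was not called in SRDX-FAMA against NLS (-0.37 ± 0.11, edgeR adjusted p = 0.0739), but was called without the library labelled SRDX-FAMA 4 h replicate 2 (-0.39 ± 0.11, edgeR adjusted p = 0.0492).

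XXT1 and XXT2 are close copies that start xylosylation of the backbone, and XXT5 acts with them in a complex. The coding sequences of XXT1 and XXT2 were 78.6% identical over 1369 aligned bases, yet shared no stretch of 50 bases, the length of the reads, and every 50-base stretch of their exons occurred once in the genome. XXT1 lay at 56.8, 81.5 and 101 CPM (lowest, median, highest) in FAMA and at 48.3, 59.7 and 78.6 CPM in SRDX-FAMA. Of the FAMA libraries, 10 of 11 exceeded the SRDX-FAMA median, and XXT1 was 1.28-fold higher (0.36 ± 0.09, edgeR adjusted p = 0.0107), and 0.38 ± 0.10 without the library labelled SRDX-FAMA 4 h replicate 2 (edgeR adjusted p = 0.0111). In SPCH XXT1 lay at 50.1, 83.4 and 116 CPM and in SRDX-SPCH at 40.5, 58.5 and 82.1 CPM. The difference of 1.41-fold (0.49 ± 0.12, edgeR adjusted p = 0.00713) was pooled over time, and the mean was higher in SPCH at all 3 time points. XXT2 went the other way in FAMA. It lay at 43.2, 58.3 and 76.6 CPM in FAMA and at 63.1, 80.4 and 95.9 CPM in SRDX-FAMA, and none of the 11 FAMA libraries reached the SRDX-FAMA median. XXT2 was 1.35-fold lower in FAMA than in SRDX-FAMA (-0.43 ± 0.09, edgeR adjusted p = 0.00288), and -0.40 ± 0.09 without the library labelled SRDX-FAMA 4 h replicate 2 (edgeR adjusted p = 0.00613). In SPCH against SRDX-SPCH the value of XXT2 was -0.11 ± 0.10 (edgeR adjusted p = 0.609), and in FAMA against NLS -0.30 ± 0.10 (edgeR adjusted p = 0.0846), with all 11 FAMA libraries below the NLS median of 76.8 CPM. In FAMA against NLS XXT2 was called without NLS 4 h replicate 2 (edgeR adjusted p = 0.0309), without FAMA 4 h replicate 1 (0.0404) and with the letter that ends the library names as a block (0.0351).

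The ratio of XXT1 to XXT2, per kilobase of exon, does not depend on the scaling of a library, and was computed after the values of both genes had been seen. It is given without a test. The ratio was 1.32 ± 0.24 (SD, n = 11) in FAMA, where 10 of 11 libraries had more XXT1 than XXT2. In SRDX-FAMA it was 0.760 ± 0.10 (SD, n = 12), and no library exceeded 0.933, which was also the highest value without the library labelled SRDX-FAMA 4 h replicate 2. SPCH had a ratio of 1.23 ± 0.41 with 8 of 12 libraries above 1, SRDX-SPCH 0.814 ± 0.23 with 3 of 11, and NLS 0.969 ± 0.23 with 4 of 11. The FAMA and SRDX-FAMA groups overlapped through 1 FAMA library, at 0.849. XXT5 lay at 32.1, 48.2 and 66.4 CPM in FAMA and 37.5, 56.3 and 66.2 CPM in SRDX-FAMA (-0.23 ± 0.10, edgeR adjusted p = 0.166), and -0.19 ± 0.10 without the library labelled SRDX-FAMA 4 h replicate 2. On the other strand, AT1G74385 overlaps 246 of the 1961 exon bases of XXT5, and whether the counting used strand is not given in the sources used here.

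**Figure D3:**
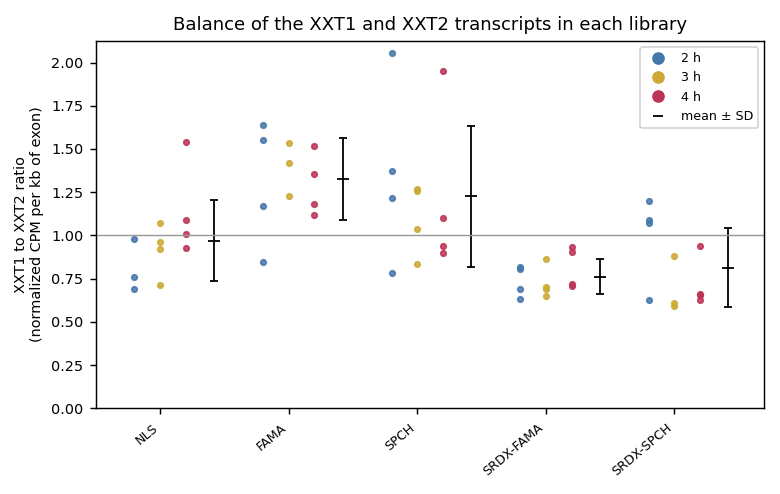
Ratio of XXT1 to XXT2 (y axis, normalized CPM per kb of exon, line at 1) in every library by line (x axis) and hours of DEX (colour), with the mean ± SD over a line. The SRDX-FAMA libraries lay between 0.632 and 0.933, and 10 of the 11 FAMA libraries lay above 1.

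MUR3 adds the galactose to which FUT1 attaches fucose. MUR3 lay at 89.4, 107 and 127 CPM (lowest, median, highest) in FAMA and at 101, 126 and 182 CPM in SRDX-FAMA. It was 1.27-fold lower in FAMA (-0.35 ± 0.10, edgeR adjusted p = 0.0163), and -0.28 ± 0.09 without the library labelled SRDX-FAMA 4 h replicate 2 (edgeR adjusted p = 0.0334). Without FAMA 3 h replicate 3 it just missed the threshold (-0.31, edgeR adjusted p = 0.0506). FUT1, the only fucosyltransferase known to act on xyloglucan in Arabidopsis, was the lowest of the 10 genes per kilobase and was called in 3 comparisons. It lay at 7.94, 9.99 and 12.8 CPM in NLS, at 5.52, 7.44 and 10.6 CPM in FAMA and at 4.67, 7.20 and 9.69 CPM in SPCH. Of the FAMA and of the SPCH libraries, 7 each lay below every NLS library, and no SPCH library reached the NLS median. FUT1 was 1.39-fold lower in FAMA than in NLS (-0.47 ± 0.10, edgeR adjusted p = 0.00545) and 1.37-fold lower in SPCH than in NLS (-0.45 ± 0.10, edgeR adjusted p = 0.00377). Both calls held on leaving out any 1 library. In SRDX-FAMA FUT1 lay at 7.58, 11.1 and 15.7 CPM. It was 1.51-fold lower in FAMA than in SRDX-FAMA (-0.59 ± 0.12, edgeR adjusted p = 0.00214), and -0.50 ± 0.11 without the library labelled SRDX-FAMA 4 h replicate 2, which was the highest of its line (edgeR adjusted p = 0.0032). In SPCH against SRDX-SPCH the value was -0.37 ± 0.12 (edgeR adjusted p = 0.0516).

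XTH9, known for its expression in elongating inflorescence apices, differed most between lines. Its lowest, median and highest values were 5.29, 10.6 and 20.3 CPM in FAMA, 6.70, 16.0 and 42.1 CPM in SPCH, 12.1, 24.6 and 40.8 CPM in NLS, 19.3, 32.7 and 58.6 CPM in SRDX-FAMA, and 19.7, 49.4 and 69.1 CPM in SRDX-SPCH. In this order neither FAMA and SPCH (0.73 ± 0.22, edgeR adjusted p = 0.121), nor SPCH and NLS (-0.59 ± 0.22, edgeR adjusted p = 0.127), nor NLS and SRDX-FAMA (0.41 ± 0.19, edgeR adjusted p = 0.331, and 0.26 ± 0.16 without the library labelled SRDX-FAMA 4 h replicate 2, adjusted p = 0.513) differed past the threshold, and the ranges of SRDX-FAMA and SRDX-SPCH overlapped. The tested pairs that lie further apart in the order did, and its 2 ends, FAMA and SRDX-SPCH, were not tested against each other. XTH9 was 3.22-fold lower in FAMA than in SRDX-FAMA (-1.69 ± 0.21, edgeR adjusted p = 8.65e-06), 2.64-fold lower in SPCH than in SRDX-SPCH (-1.40 ± 0.27, edgeR adjusted p = 0.00158) and 2.44-fold lower in FAMA than in NLS (-1.29 ± 0.17, edgeR adjusted p = 2.12e-05). Each of these calls held on leaving out any 1 library. The SRDX-SPCH line was 1.81-fold higher than NLS (0.86 ± 0.22, edgeR adjusted p = 0.0404), a call that was lost on leaving out any 1 of 15 of the 22 libraries, with adjusted p up to 0.0903.

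At each time point the FAMA and SRDX-FAMA libraries were separate for XTH9. After 2 h the FAMA libraries read 12.3, 12.6, 13.7 and 20.3 CPM and the SRDX-FAMA libraries 22.5, 28.5, 35.2 and 38.8 CPM. After 3 h they read 5.29, 7.57 and 13.5 CPM against 30.1, 36.2, 43.5 and 50.8 CPM. After 4 h they read 6.90, 7.56, 10.1 and 10.6 CPM against 19.3, 21.8, 25.9 and 58.6 CPM. The value of 58.6 CPM belonged to the library labelled SRDX-FAMA 4 h replicate 2, and without it the log2 fold change was -1.52 ± 0.18 (edgeR adjusted p = 7.22e-06). The SPCH and SRDX-SPCH libraries were separate only after 3 h, when they read 6.70, 12.2, 15.5 and 17.7 CPM against 19.7, 63.2 and 69.1 CPM. Against NLS, the FAMA libraries were separate after 3 h and 4 h and overlapped after 2 h.

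Markers of other cell states also differed between lines. Mean dividing cell sums were 42.6 CPM in FAMA, 84.8 in SPCH, 141 in SRDX-FAMA, 150 in SRDX-SPCH and 183 in NLS. The lines had the same order for XTH9 except NLS, which was highest here and lay between SPCH and SRDX-FAMA for XTH9. The summed level of 8 dividing cell markers ranged from 27.4 to 69.8 CPM in FAMA, 45.6 to 126 CPM in SPCH, 118 to 276 CPM in NLS, 85.9 to 197 CPM in SRDX-FAMA and 74.4 to 278 CPM in SRDX-SPCH. All 8 were called lower in FAMA against NLS, SPCH against NLS and FAMA against SRDX-FAMA, and 6 of 8 in SPCH against SRDX-SPCH. The 8 meristemoid and guard mother cell markers summed to 108 to 198 CPM in FAMA, 136 to 426 CPM in SPCH, 278 to 616 CPM in NLS, 167 to 388 CPM in SRDX-FAMA and 251 to 486 CPM in SRDX-SPCH. Of the 11 mature guard cell markers, 2 were called higher in each of these 4 comparisons and none lower. Without the library labelled SRDX-FAMA 4 h replicate 2, 5 of the 11 were called higher in FAMA against SRDX-FAMA, and the counts of the dividing and meristemoid markers there were the same. Of 6 epidermis markers, 2 were called lower in each of the 4 comparisons, with summed line means of 843 to 1025 CPM. In SRDX-FAMA against NLS 2 of the 8 dividing cell markers were called lower and 0 higher. Without the library labelled SRDX-FAMA 4 h replicate 2 it was 3 lower and 0 higher. In SRDX-SPCH against NLS 0 were called, and all 8 had log2 fold changes below 0. The summed level of the myrosin cell markers had line means from 24029 CPM in SRDX-FAMA, or 22033 CPM without that library, to 67520 CPM in SPCH. Their part in the differences of XTH9, FUT1, XXT2, CSLC4 and XXT1 was not tested. The share of plastid-encoded reads was 0.183% to 0.747% per library, with line means between 0.362% and 0.397%.

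The active site of the XTH family is a short stretch with a catalytic acidic residue, and its codons in XTH4, XTH9 and XTH22 are shown as a description. The 27 bases below are read 5′ to 3′ from the RefSeq coding sequences, with the codons of the 3 positions that are acidic in all 3 genes in capitals.
XTH4: gacGAGataGACtttGAGttccttgga
XTH9: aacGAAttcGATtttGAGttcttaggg
XTH22: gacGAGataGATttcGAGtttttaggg
XTH4 and XTH22 share 21 of the 27 bases, XTH9 and XTH22 21, and XTH4 and XTH9 19. The first base of the stretch lies in codon 108 of XTH4 (chromosome 2), 100 of XTH9 (chromosome 4) and 96 of XTH22 (chromosome 5). Over the whole coding sequence the 3 genes were 65.4% to 67.8% identical, with no shared 50-base stretch.

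XTH4, which acts with XTH9 in the expansion of wood cells in Arabidopsis, spread widely within each line. It lay at 2.36, 12.1 and 21.0 CPM (lowest, median, highest) in NLS, 2.93, 12.9 and 29.6 CPM in FAMA, 2.73, 6.98 and 13.6 CPM in SPCH, 6.11, 17.6 and 51.8 CPM in SRDX-FAMA and 5.54, 11.0 and 24.8 CPM in SRDX-SPCH. By edgeR no line comparison called it, and DESeq2's Wald test called it in SPCH against SRDX-SPCH (-0.70 ± 0.27, adjusted p = 0.0462). With the letter that ends the library names as a block, edgeR called it in SRDX-FAMA against NLS (adjusted p = 0.000313), FAMA against SRDX-FAMA (0.00957) and SPCH against SRDX-SPCH (0.00841). With counts summed per line and time point, edgeR called it in SPCH against NLS (adjusted p = 0.00186) and SRDX-FAMA against NLS (0.0119). Such sums merge the replicates, so these p-values do not measure the spread between them. The fitted values were 0.81 ± 0.38 in SRDX-FAMA against NLS (edgeR adjusted p = 0.35), where it was 0.88 ± 0.38 without the library labelled SRDX-FAMA 4 h replicate 2, -0.81 ± 0.31 in SPCH against FAMA (edgeR adjusted p = 0.312) and -0.69 ± 0.27 in SPCH against SRDX-SPCH (edgeR adjusted p = 0.0962). XTH22, a gene first found for its response to touch and also raised by brassinosteroid, had similar levels in all lines, with means between 294 and 357 CPM. Its log2 fold changes in the 7 line comparisons lay between -0.25 and 0.21. Its coding sequence was 82.4% identical to that of XTH23, with no shared 50-base stretch.

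XYL1 trims the end of the chain, and edgeR called it in no line comparison with all libraries in the fit. It lay at 26.6, 39.6 and 62.4 CPM (lowest, median, highest) in NLS, 17.0, 29.0 and 71.0 CPM in FAMA, 15.2, 29.2 and 53.5 CPM in SPCH, 18.9, 28.7 and 65.5 CPM in SRDX-FAMA and 28.4, 32.1 and 61.7 CPM in SRDX-SPCH. The largest difference was in SPCH against NLS (-0.43 ± 0.18, edgeR adjusted p = 0.161). Without SPCH 4 h replicate 2, the highest library of its line, it was called (-0.55, edgeR adjusted p = 0.0394). It was also called there with the library letter as a block (-0.57 ± 0.14, edgeR adjusted p = 0.00784) and with counts summed per line and time point (-0.52 ± 0.07, edgeR adjusted p = 0.00211). The sums merge the replicates, so that last SE does not measure the spread between them.

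Time courses ask which genes moved between 2, 3 and 4 h of DEX. In the FAMA line XYL1 read 29.0, 38.1, 64.8 and 71.0 CPM after 2 h, 18.6, 26.0 and 35.7 CPM after 3 h, and 17.0, 20.8, 28.2 and 36.1 CPM after 4 h. The groups overlapped, with 2 of the 4 libraries at 2 h well above all later ones. XYL1 gave -0.97 ± 0.31 at 4 h against 2 h and did not pass (edgeR adjusted p = 0.182). XTH4 read 17.4, 18.9, 28.8 and 29.6 CPM after 2 h and 3.06, 5.72, 10.1 and 15.2 CPM after 4 h. Its value was -1.46 ± 0.47 (edgeR adjusted p = 0.183). XTH9 did not pass either at 4 h against 2 h (-0.73 ± 0.27, edgeR adjusted p = 0.249). DESeq2's Wald test on the same genes called XTH4 (-1.46 ± 0.46, adjusted p = 0.0332) and XYL1 (-0.97 ± 0.32, adjusted p = 0.0454), and not XTH9 (adjusted p = 0.118).

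By edgeR no member was called between 4 h and 2 h in any of the 5 lines, nor in the steps from 2 to 3 h and 3 to 4 h in FAMA and SPCH. In FAMA 5 of the 10 members had an unadjusted p under 0.05 at 3 h against 2 h and 3 at 4 h against 2 h, in SRDX-SPCH 2 did at 4 h against 2 h, and in the other steps 0 did. Of all genes, 10.7%, 14.1% and 6.03% had such a p in these 3 steps. Of all genes tested, 0% were called in each of these steps except 0.0042% in SRDX-SPCH at 4 h against 2 h. Whether a line changed over time differently from NLS was tested by the line by time interaction. No member was called for any of the 4 lines by edgeR (0% of all genes called) or by DESeq2's Wald test, with XTH22 at an unadjusted p under 0.05 in FAMA (-1.01 ± 0.42, edgeR adjusted p = 0.968) and XXT1 in SRDX-SPCH (-0.72 ± 0.25). The course of XYL1 in FAMA was not shown to differ from that in NLS (-0.76 ± 0.47, edgeR adjusted p = 0.968).

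**Figure D4:**
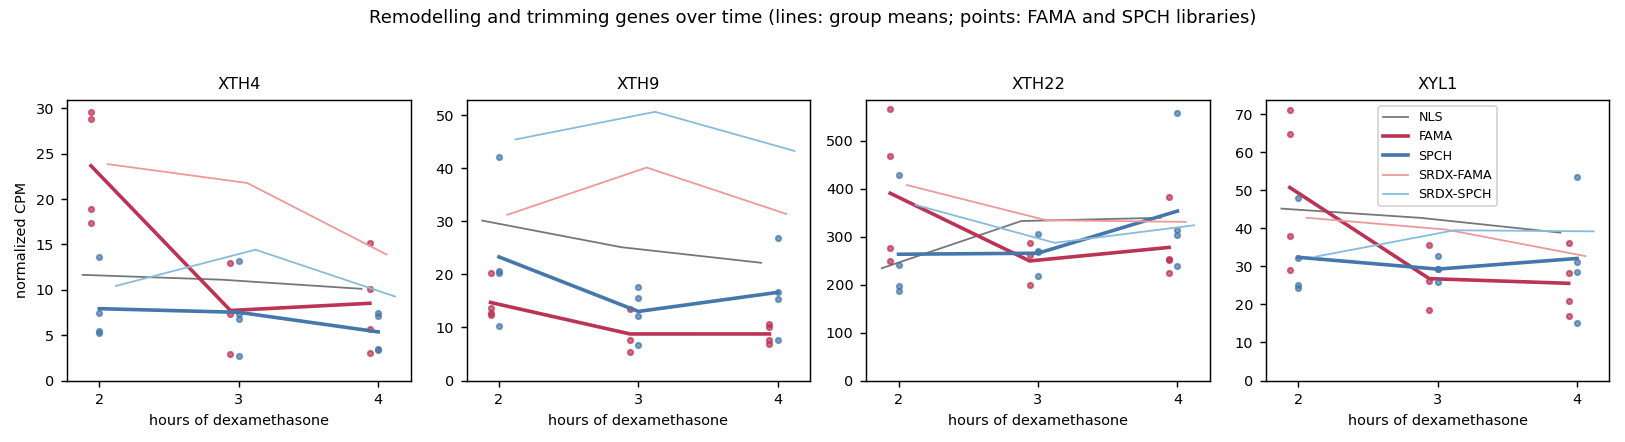
Normalized CPM (y axis, linear, from 0) of XTH4, XTH9, XTH22 and XYL1 against hours of DEX (x axis), with a line through the mean of each group for the 5 lines and points for the FAMA and SPCH libraries. In FAMA, XTH4 lay at 17.4 to 29.6 CPM after 2 h and 3.06 to 15.2 CPM after 4 h, and XYL1 at 29.0 to 71.0 and 17.0 to 36.1 CPM.

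SPCH and FAMA were also set side by side at each time point. No member was called by edgeR after 2, 3 or 4 h (0.00881%, 0.0133% and 0.00892% of all genes called), with 1, 0 and 1 members at an unadjusted p under 0.05, as had 4.84%, 8.72% and 4.87% of all genes. DESeq2's Wald test called XTH4 lower in SPCH after 2 h and no member later. At 2 h the SPCH libraries read 5.20, 5.42, 7.45 and 13.6 CPM of XTH4, all under the lowest FAMA library at 17.4 CPM.

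SPCH and FAMA are bHLH factors, a class known to bind E-boxes, so the bases before each gene were searched for CANNTG and for the G-box CACGTG, which is one form of it. Both motifs read the same on either strand. In the 250 bases before the annotated start, 7 of the 10 genes held at least 1 CANNTG, and of all 27443 nuclear protein-coding genes 55.3% did. XXT5, XTH22 and XYL1 held none, FUT1 held 3, and MUR3 held 4, 1 of them CACGTG, which is present in 6.49% of all windows. A match is a description of letters, not a bound site. The 3 genes called in both comparisons of a native factor with its repressor are shown, 5′ to 3′ up to the base before the gene, with CANNTG in capitals.
XTH9, chr4:1415367-1415616, plus strand: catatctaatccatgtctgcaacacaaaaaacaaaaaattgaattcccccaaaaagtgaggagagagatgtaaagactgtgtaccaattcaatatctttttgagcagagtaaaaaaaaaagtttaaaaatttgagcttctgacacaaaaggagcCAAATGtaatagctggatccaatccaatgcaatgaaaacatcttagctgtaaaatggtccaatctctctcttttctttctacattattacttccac
CSLC4, chr3:10505461-10505710, plus strand: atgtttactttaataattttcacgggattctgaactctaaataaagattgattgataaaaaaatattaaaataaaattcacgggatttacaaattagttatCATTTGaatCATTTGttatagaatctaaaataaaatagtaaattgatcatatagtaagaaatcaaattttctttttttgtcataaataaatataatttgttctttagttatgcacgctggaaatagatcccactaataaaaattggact
XXT1, chr3:23200782-23201031, plus strand: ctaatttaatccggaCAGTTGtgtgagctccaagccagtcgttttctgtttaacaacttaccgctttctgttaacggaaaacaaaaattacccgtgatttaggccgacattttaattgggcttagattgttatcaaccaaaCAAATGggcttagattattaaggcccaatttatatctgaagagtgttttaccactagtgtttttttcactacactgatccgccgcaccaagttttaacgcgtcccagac
XTH9, lower with the native factors than with their fusions, has 1 CANNTG, 96 bases before the gene. CSLC4 and XXT1, higher with the native factors than with their fusions, have 2 each, at 149 and 140 bases and at 235 and 109 bases. None of the 3 windows shown holds CACGTG. FUT1, MUR3 and XXT2, called lower in FAMA against SRDX-FAMA, held 3, 4 and 2 CANNTG. Whether the number of motifs goes with the direction was not tested.

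The rest of the pathway was read from 45 other xyloglucan genes, of which 44 or 45 were tested. In FAMA against SRDX-FAMA 0 were called higher and 8 lower, with a median log2 fold change of -0.19, where 13.1% of all genes were called. All 8 were also called without the library labelled SRDX-FAMA 4 h replicate 2. They included XTH32 (-0.83 ± 0.15, edgeR adjusted p = 0.000377), the xylosyltransferase XXT3 (-0.60 ± 0.14, edgeR adjusted p = 0.00395), XTH8 (-0.69 ± 0.16, edgeR adjusted p = 0.00396) the glucan synthase CSLC5 (-0.73 ± 0.17, edgeR adjusted p = 0.00509) and the galactosyltransferase XLT2 (-0.30 ± 0.10, edgeR adjusted p = 0.0445). CSLC5 is a close relative of CSLC4, which differed in the opposite direction. In SPCH against SRDX-SPCH 4 of 44 were called, against 11.6% of all genes. XTH30 was higher (0.74 ± 0.19, edgeR adjusted p = 0.0119), and XTH32, AT5G04885 and AT5G20950 were lower, with XTH32 at -0.60 ± 0.12 (edgeR adjusted p = 0.00174).

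Against NLS 4 of these genes were lower in FAMA and 4 in SPCH, and none higher, where 5.47% and 4.13% of all genes were lower. AT5G20950 and AT5G04885, both annotated as glycosyl hydrolases, and the beta-galactosidase gene BGAL10, whose product removes galactose from xyloglucan, were lower in both. AT5G20950 was 1.72-fold lower in FAMA (-0.78 ± 0.11, edgeR adjusted p = 2.74e-05) and 1.73-fold lower in SPCH (-0.79 ± 0.11, edgeR adjusted p = 4.49e-05). BGAL10 was 1.68-fold lower in FAMA (-0.75 ± 0.11, edgeR adjusted p = 3.36e-05) and 1.53-fold lower in SPCH (-0.61 ± 0.09, edgeR adjusted p = 0.000119). The fourth gene was CSLC5 in FAMA (-0.75 ± 0.14, edgeR adjusted p = 0.000944) and XTH19 in SPCH (-1.31 ± 0.28, edgeR adjusted p = 0.00454). Both comparisons use the NLS libraries. In SRDX-FAMA against NLS XTH32 alone was called (0.74 ± 0.18, edgeR adjusted p = 0.0253), against 2.25% of all genes. Without the library labelled SRDX-FAMA 4 h replicate 2 XTH32 was at 0.77 ± 0.18 (edgeR adjusted p = 0.0194) and AT5G20950 was also called (-0.40 ± 0.08, edgeR adjusted p = 0.00451). In SRDX-SPCH against NLS none was called by edgeR, with 6 at an unadjusted p under 0.05, where 12.9% of all genes were, and DESeq2 was not run on these genes. Among 9 cellulose synthase and expansin genes, the expansin EXPA10 (-0.71 ± 0.17, edgeR adjusted p = 0.00662) and the cellulose synthase CESA1 (-0.40 ± 0.10, edgeR adjusted p = 0.00794) were lower in FAMA against SRDX-FAMA, and both were called without the library labelled SRDX-FAMA 4 h replicate 2. The expansin EXPA3 was lower in SPCH against NLS (-0.77 ± 0.17, edgeR adjusted p = 0.00648) and in SPCH against FAMA (-0.66 ± 0.13, edgeR adjusted p = 0.00922).

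Across the 57 libraries the members did not move as 1 group. The highest Pearson r of log2 CPM between members were 0.69 for XXT5 and MUR3, 0.68 for FUT1 and XTH9 and 0.64 for XXT2 and XXT5, and the lowest was -0.48 for XXT1 and XTH9. Within lines and time points, after group means were removed, XXT5 and MUR3 had r = 0.66, XXT2 and XXT5 0.64, XXT1 and XXT5 0.61, FUT1 and XTH9 0.55, and XXT1 and XTH9 -0.06. Among 25301 genes, those most like XYL1 were TRM19 (r = 0.87), the receptor-like kinase gene SNC4 (r = 0.85) and AT4G34670 (r = 0.83). XTH4 was most like XTH7 (r = 0.87), MLP28 (r = 0.87) and the aquaporin gene PIP1;5 (r = 0.86). XTH22 was most like the zinc finger gene SZF1 (r = 0.86), the MAP kinase gene MPK3 (r = 0.85) and AT4G27280 (r = 0.83). These values are descriptions over libraries that share lines, time points and protoplasting, and carry no test.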

How the data were processed

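The authors sorted Venus-positive protoplasts, made SMART-Seq v4 libraries, sequenced single 50-base ends, aligned them with STAR to TAIR10 and counted reads per gene with HTSeq, and the deposited values are these raw counts. Tool versions, annotation release and strand setting are not given in the sources used here. Total counts per library set the precision of each value, which for FUT1 and XTH4 rests on the fewest reads.

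Samples were grouped by the labelled line and time, and 1 column of the table by the line and time in its name alone. Genes passed edgeR's filterByExpr with a minimum count of 10, libraries were scaled by TMM, and lines were compared over the 3 time points with time as a covariate by edgeR's quasi-likelihood test (edgeR 4.0.16, R 4.3.3). P-values were adjusted by Benjamini-Hochberg over all genes tested, with a threshold of 0.05, and the SE is the log2 fold change divided by the root of the F statistic. Replicates were biological. DESeq2 1.42.0, other filters and scalings, blocks, summed counts, 1 fit of all libraries and leaving out each library were alternatives. Leaving out SRDX-FAMA 4 h replicate 2 for the other wall and marker genes was chosen after seeing the data. Correlations used log2 CPM with a prior count of 2.

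Gene positions came from the RefSeq TAIR10.1 annotation, matched by locus tag for 27445 of the 27655 genes. All 10 members were named in the text, other genes of the listed pathways where they passed the threshold, and the 3 genes most alike for XYL1, XTH4 and XTH22. The members and lists were chosen with earlier results of these data known. The test was run on simulated counts with changes larger than those of most members and the same relative spread for every gene. That run does not show how often changes as small as those of most members are found.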

Additional observations from a re-analysis of the deposited data

Results flagged for a closer look

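In groups of 4 libraries, 7 of 120 had 1 library far from the other 3, and chance alone gives about 1 in 20. The library labelled SRDX-FAMA 4 h replicate 2 stood apart for XTH9, at 58.6 CPM against 19.3 to 25.9 CPM, and for FUT1, at 15.7 CPM against 7.58 to 8.36 CPM. For XYL1, SRDX-FAMA 4 h replicate 4 had 48.7 CPM and SRDX-SPCH 4 h replicate 4 had 61.7 CPM, both above the rest of their groups. XXT1 was low in SPCH 2 h replicate 1, at 50.1 CPM. MUR3 was high in SRDX-SPCH 2 h replicate 3, at 187 CPM, and FUT1 was low in SRDX-SPCH 4 h replicate 1, at 5.68 CPM.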

How the results depend on the processing

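No called value changed direction under any alternative run. The calls of XTH9 in FAMA against NLS, FAMA against SRDX-FAMA and SPCH against SRDX-SPCH held in every alternative. DESeq2's Wald test called 1 member in SRDX-FAMA against NLS, 1 in SPCH against FAMA, 5 in SPCH against SRDX-SPCH, 1 in SPCH against FAMA at 2 h and 2 in FAMA at 4 h against 2 h. With the letter that ends the library names as a block, leaving out libraries with none, the counts were 3 in FAMA against NLS (XXT2 added), 7 in FAMA against SRDX-FAMA (XTH4 added), 4 in SPCH against NLS (XXT1, XTH9 and XYL1 added), 2 in SRDX-FAMA against NLS, 2 in SRDX-SPCH against NLS, 1 in SPCH against FAMA, 5 in SPCH against SRDX-SPCH and 2 in FAMA at 4 h against 2 h. Counts summed per line and time point merge the replicates, so their fit does not measure the spread between them. They gave 1 in FAMA against NLS, where FUT1 was lost (edgeR adjusted p = 0.110), 4 in SPCH against NLS and 2 in SRDX-FAMA against NLS. A fit of all libraries together gave 1 in SRDX-FAMA against NLS. The cause of these changes was not tested. Deviations of samples with the same replicate number had r from -0.55 to 0.57, and those with the same letter from -0.39 to 0.64. Neither paired the samples throughout, though some pairs were alike. With the number as a block 0 members were called in SRDX-SPCH against NLS, where XTH9 had 0.86 (edgeR adjusted p = 0.0605), with no other member's call changed. On leaving out 1 library, the count ranged from 2 to 3 in FAMA against NLS, 5 to 6 in FAMA against SRDX-FAMA, 1 to 2 in SPCH against NLS, 0 to 1 in SRDX-FAMA against NLS, 0 to 1 in SRDX-SPCH against NLS and 2 to 5 in SPCH against SRDX-SPCH. In SPCH against NLS, XTH9 was called without SPCH 2 h replicate 2 (edgeR adjusted p = 0.0316). In SPCH against SRDX-SPCH, CSLC4 was lost with no filter on low counts (edgeR adjusted p = 0.0503) and in 1 fit of all libraries (edgeR adjusted p = 0.115), and FUT1 was called without any 1 of 8 libraries and XTH4 without SPCH 2 h replicate 2. For FAMA at 4 h against 2 h, XTH4 and XYL1 were called by DESeq2 and with the letter, and not by edgeR otherwise.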
